A study of Mus musculus with 18 samples.

Results

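Cytosolic ribosomal protein genes encode the proteins of the 40S and 60S ribosomal subunits. They were taken by symbol: protein-coding genes of the deposited table of normalized counts named Rpl or Rps with a number, Rplp0 to Rplp2 or Rpsa, with at most 1 of the letters a, x or l after the number. The rule used names and no measured value, and it found 78 of the 17787 genes in that table, 31 of the 40S subunit and 47 of the 60S subunit. Symbols of the same form outside it included 2 protein-coding genes that the table does not list, Rpl10l and Rpl39l, with means of 0.056 and 0.444 estimated reads per library, and genes annotated as pseudogenes, Rpl32l (0.444 reads), Rpl6l (1.272 reads) and Rps4l.

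The data are RNA-seq of whole dorsal root ganglia, the clusters of sensory neuron cell bodies beside the spinal cord. Lumbar ganglia L2 to L4 of the operated side came from male C57BL/KaLwRijHsd mice aged 5 to 7 weeks, on day 24 after surgery. In the MM group (9 libraries) 5TGM1-GFP myeloma cells, a mouse plasma cell tumour line carrying green fluorescent protein, had been injected into the femur. The SHAM group (9 libraries) had received vehicle in the same bone. By the series' design the libraries are those of 18 mice, so each was treated as an animal of its own, and the labels record no batch. The libraries held between 19014161 and 21538262 estimated reads assigned to genes, so counting error was small for nearly all of these genes.

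Ribosomal proteins are made in near-equal numbers and joined to ribosomal RNA in the nucleolus, and their mRNAs are among the most abundant in most cells. In mammals these mRNAs typically begin with a terminal oligopyrimidine (TOP) stretch, a C followed by a run of C and T, through which the growth regulator mTOR controls how strongly they are translated. Sensory neurons keep ribosomes in the cell body and also in their axons, and growing and dividing cells are known for high ribosomal protein mRNA levels.

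The start of the gene was examined because the TOP stretch is the family's shared feature. RefSeq promoter windows on GRCm38.p6 were found for 58 of the 78 genes. A C followed by at least 4 C or T, beginning within 5 bases of the annotated start on the gene's strand, was present in 28 of 58 (48.3%, exact 95% interval 35 to 61.8%), against 21.2% of 27025 genes in the table. With a run of at least 6 C or T after the C the share was 37.9%, against 7.64% of all genes. The 6 genes shown first below carry such a run, in capitals, at different places in the range of fold changes described later. Rpl41 and Rps28, also shown, have none in this window. Each line spans 10 bases before to 20 bases from the annotated start.
Rplp2, chr7:141447641-141447670, plus strand: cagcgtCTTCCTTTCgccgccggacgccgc
Rps18, chr17:33955646-33955675, minus strand: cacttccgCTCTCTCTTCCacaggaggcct
Rpl18, chr7:45718061-45718090, plus strand: ctcgcaggccgCTCTTTCCCCgcccactcc
Rpl13a, chr7:45128726-45128755, minus strand: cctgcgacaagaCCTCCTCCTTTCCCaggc
Rps6, chr4:86857348-86857377, minus strand: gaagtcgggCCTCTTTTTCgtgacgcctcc
Rps27, chr3:90213629-90213658, minus strand: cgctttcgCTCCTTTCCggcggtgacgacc
Rpl41, chr10:128549149-128549178, minus strand: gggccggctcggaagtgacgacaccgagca
Rps28, chr17:33824543-33824572, minus strand: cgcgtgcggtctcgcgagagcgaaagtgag

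A second short sequence was searched on both strands of the whole window, 250 bases before to 50 bases after the start. CCGGAAGT, a core bound by ETS family factors, was present in 20.7% of the 58 genes and 4.31% of all genes in the table. CACGTG, the E-box that MYC and related factors bind, reads the same on both strands and was present in 10.3% of the 58 genes and 8.09% of all genes. These are matches of letters, and none was shown to be bound here.

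Ribosomal protein genes were higher in MM than in SHAM ganglia, most of all in 3 of the 9 MM libraries. Their summed level is given as CPM, counts scaled to a fixed library total with the trimmed mean of M values (TMM). It ran from 8768 CPM in MM2, with a median of 10139 CPM, to 24229 CPM in MM9, and in SHAM libraries from 7831 CPM, with a median of 8542 CPM, to 10087 CPM in SHAM6. The 9 MM libraries averaged 13431 ± 5799 CPM (SD) and the 9 SHAM libraries 8623 ± 691 CPM (SD), a ratio of 1.56. All 9 MM libraries lay above the SHAM median and 5 lay above the highest SHAM library, so the groups overlapped. Per length, the family made up 3.54% to 8.87% of TPM, the unit that scales reads by transcript length to a fixed total, in MM libraries and 3.17% to 3.99% in SHAM libraries. In whole ganglia, a larger number of ribosome-rich cells and more ribosomal protein mRNA per cell cannot be told apart.

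The libraries MM9, MM5 and MM8 stood apart from the other 6 MM libraries. For each library the deviation of every gene from its SHAM mean was taken on the log2 CPM scale. Its median over the 77 genes tested was 1.53 in MM9, 1.31 in MM5 and 0.94 in MM8. In the other MM libraries that median ran between 0.03 in MM2 and 0.38 in MM3, and in SHAM libraries between -0.14 in SHAM3 and 0.26 in SHAM6. The same 3 libraries had the highest levels of Ighg2b, the heavy chain of the antibody class that 5TGM1 cells are known to secrete. Ighg2b was at 4374 CPM in MM9, 2334 CPM in MM8 and 2197 CPM in MM5, at 11.7 to 390 CPM in the other MM libraries and at 0.10 to 16.4 CPM in SHAM libraries. MM2, with the lowest Ighg2b among MM libraries, also had the lowest summed ribosomal protein level among them. The order of other MM libraries differed between the 2 measures. MM7 had 104 CPM of Ighg2b and a summed level of 10139 CPM, while MM4 had 390 and 9481 CPM. MM8 was above MM5 in Ighg2b but below it in summed level, at 16533 against 21240 CPM. The part of myeloma cells in the ribosomal protein difference was not tested.

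**Figure D1:**
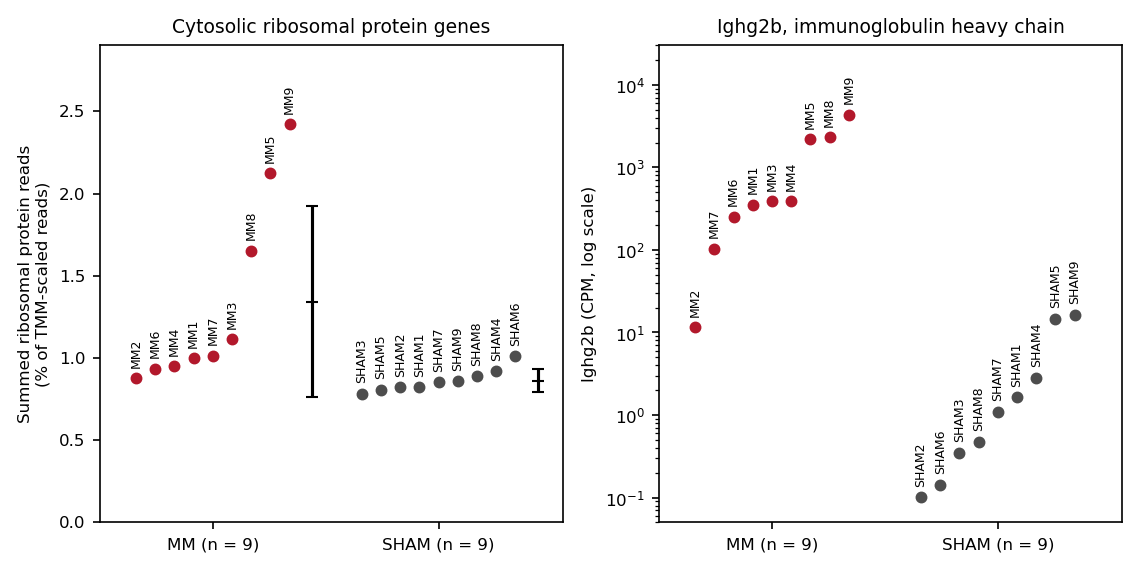
Summed ribosomal protein gene reads as a percentage of TMM-scaled reads (left) and Ighg2b in CPM on a log axis (right), with 1 point for each library, MM left of SHAM; the bars at the left panel's groups show mean and SD (n = 9 each). MM9, MM5 and MM8 reach 2.42%, 2.12% and 1.65% of reads, the other libraries lie between 0.78% and 1.11%, and the same 3 libraries are highest in Ighg2b.

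**Figure D2:**
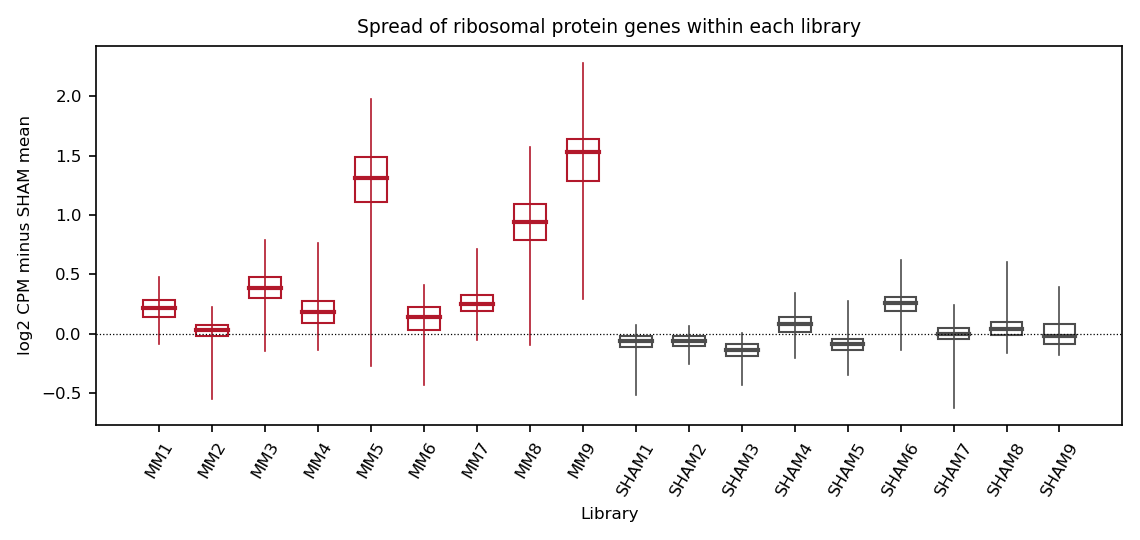
Deviation of the 77 tested genes from their SHAM means (log2 CPM) in each library, MM libraries at the left and SHAM libraries at the right; boxes span the quartiles, thick bars mark medians and lines reach the lowest and highest gene. At least 74 of the 77 genes lie above 0 in MM1, MM3, MM5, MM7, MM8, MM9 and SHAM6. The medians are highest in MM5, MM8 and MM9, at 0.94 or above, and those of the SHAM libraries stay between -0.14 and 0.26.

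Gene by gene, 77 of the 78 genes passed the filter on low counts and were tested with edgeR's quasi-likelihood test. The fitted log2 fold change of MM over SHAM was positive for 77 of 77, against 48.9% of the 15774 genes tested. Its median over the 77 was 0.64 (quartiles 0.54 and 0.74, range 0.08 to 1.08), against -0.00 over all genes tested. At a Benjamini-Hochberg adjusted p under 0.05, 13 rose and 0 fell, against 2.75% of all genes that rose and 0.241% that fell. At an unadjusted p under 0.05, 74 were higher and 0 lower, against 13.9% of all genes higher. The adjusted p of the 13 lay between 0.0378 and 0.04996 and that of another 52 between 0.05 and 0.1, so most of the family sat close to either side of the threshold. DESeq2 called 64 higher, against 5.85% of all genes. limma on the deposited table called 0, against 1.09% of all genes called higher. It had 73 higher at an unadjusted p under 0.05, and the share of all genes at that threshold was not counted there.

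The ordering of libraries was shared across the family. For 76 of the 77 genes, MM5, MM8 and MM9 were the 3 highest of all 18 libraries, against 13.4% of all genes tested. MM9 was the highest library for 70 genes, MM5 for 6 and MM4 for 1. All 9 MM libraries lay above the SHAM median for 42 of 77 genes, against 4.89% of all genes. In CPM, no gene of the family was without overlap between the groups, against 0.12% of all genes. In TPM, which was not counted over all genes, Rpl27 did not overlap, at 401 to 839 in MM and 342 to 397 in SHAM libraries. Rpl27 was named after its value was seen. Without MM5, MM8 and MM9, edgeR called 0 of 78 genes, against 0.331% of all genes called higher. At an unadjusted p under 0.05, 52 of the 78 were higher, and the share of all genes at that threshold was not counted in this fit. The lowest adjusted p was 0.0549, for Rpl18, and the median log2 fold change was 0.19. In that comparison 75 of 78 genes had a positive fold change, against 47.3% of all genes, and the summed level was 1.14 times that in SHAM.

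The count of 13 also depended on single libraries. It was 0 when MM5, MM8 or MM9 was left out, where 0.474% to 0.701% of all genes were called higher, and 0 when any SHAM library other than SHAM6 was left out, where 0.693% to 1.65% of all genes were. It was 62 without MM2 (5.62% of all genes), 44 without MM1 (4.02%), 41 without MM4 (3.58%), 32 without MM6 (3.28%) and 28 without SHAM6 (3.74%). It was 20 without MM3 (3.39%) and 20 without MM7 (3.1%). The median log2 fold change ran from 0.48 to 0.70 over these 18 fits.

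**Figure D3:**
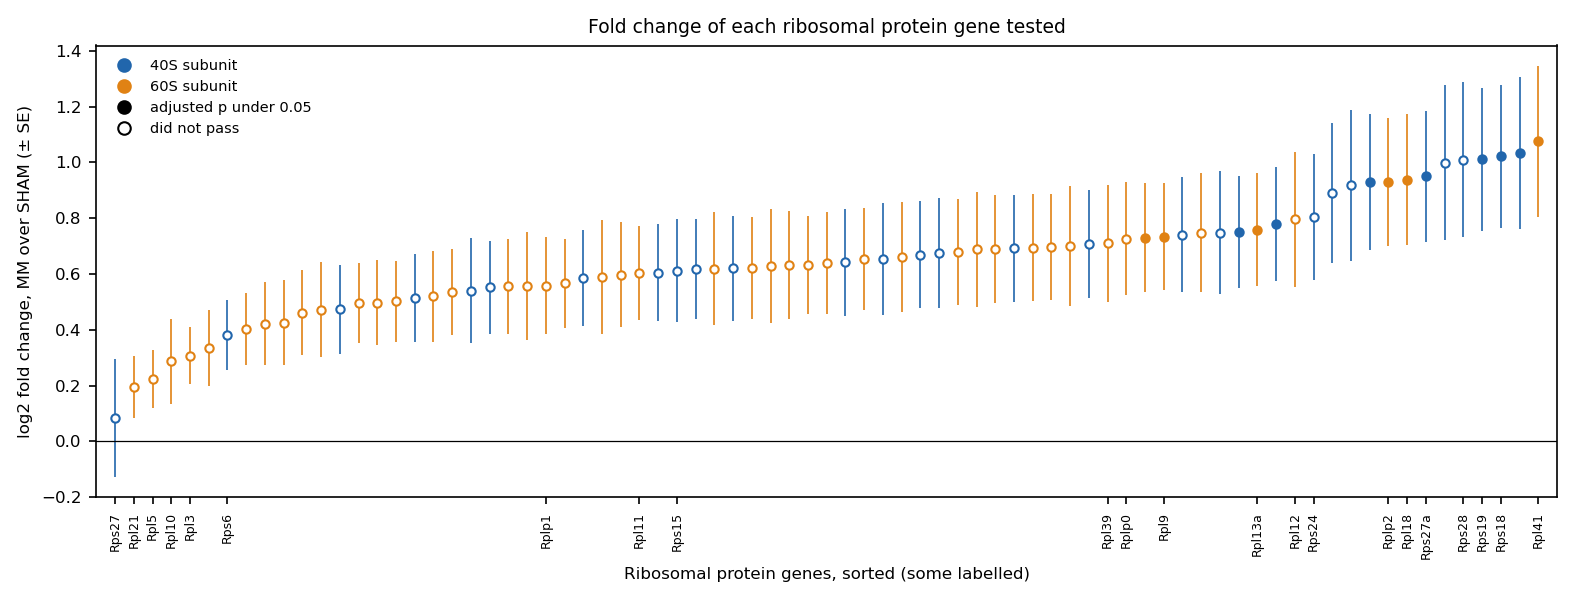
Fitted log2 fold change of MM over SHAM with its standard error for the 77 tested ribosomal protein genes, sorted by size, with some names given; colour marks the subunit and filled points the 13 genes with an adjusted p under 0.05 (edgeR). Every point lies above 0, from Rps27 at 0.08 to Rpl41 at 1.08, and the filled points lie at 0.73 or above.

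Of the 40S subunit, which reads the mRNA, 7 of 31 genes rose and 24 did not pass, with a median log2 fold change of 0.69. Of the 60S subunit, which forms the peptide bond, 6 of 46 rose and 40 did not pass, with a median of 0.62. Of all genes tested, 2.75% rose. In MM9 the median deviation was 1.58 for 40S genes and 1.49 for 60S genes. The difference between the subunits was not tested.

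Among the 40S genes, Rps18 encodes a protein of the subunit head that takes part in bridges to the 60S subunit. It measured 53.8, 69.0 and 226 CPM (lowest, median and highest) in MM libraries and 46.2, 52.0 and 66.4 CPM in SHAM libraries, and rose with a log2 fold change of 1.02 ± 0.26 (SE; adjusted p = 0.0397, edgeR). All 9 MM libraries were above the SHAM median and 6 were above SHAM6, the highest SHAM library. Rps19 is needed to mature the 40S subunit and is mutated in human Diamond-Blackfan anaemia. Rps19 measured 36.4, 45.9 and 145 CPM in MM and 30.8, 34.5 and 44.2 CPM in SHAM libraries, and rose by a log2 fold change of 1.01 ± 0.25 (adjusted p = 0.0408, edgeR). MM2 was the lowest MM library and MM9 the highest, and all 9 MM libraries were above the SHAM median.

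Rps27a is made as a fusion of ubiquitin with a protein of the 40S head. It measured 59.9, 72.5 and 232 CPM in MM libraries and 49.4, 53.5 and 70.7 CPM in SHAM libraries, and rose with a log2 fold change of 0.95 ± 0.24 (adjusted p = 0.0388, edgeR). Other 40S genes that rose were Rps16, whose protein tail reaches the tRNA in the peptidyl site, at 0.93, and Rps7, which can bind the p53 regulator Mdm2, at 0.75 on the log2 scale. Their adjusted p ran from 0.0470 to 0.0494 (edgeR), and in both every MM library was above the SHAM median.

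Some 40S genes with large fold changes did not pass. Rps28, a small head protein near the mRNA exit, measured 21.7, 29.9 and 102 CPM in MM and 20.6, 22.4 and 33.3 CPM in SHAM libraries, with a log2 fold change of 1.01 ± 0.28 (adjusted p = 0.0540, edgeR). The highest SHAM value, in SHAM6, exceeded the MM median. Rps6, the substrate of S6 kinase in the mTOR pathway, had one of the smaller differences. It measured 199, 224 and 399 CPM in MM and 193, 199 and 228 CPM in SHAM libraries, with a log2 fold change of 0.38 ± 0.12 (adjusted p = 0.0923, edgeR). Rps15 and Rps24 were among the 6 highest of the family in TPM. Rps15 averaged 1805 ± 623 TPM in MM and 1264 ± 107 TPM in SHAM libraries (SD, n = 9 each), and Rps24 averaged 1518 ± 530 TPM in MM and 1056 ± 64.9 TPM in SHAM libraries. Their log2 fold changes of 0.61 and 0.80 did not pass (adjusted p = 0.0726 and 0.0570, edgeR).

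Among the 60S genes, Rpl41 encodes a very short protein at the interface of the subunits. It had the highest mean TPM of the family and its largest fold change. Rpl41 measured 235, 312 and 1009 CPM in MM libraries and 194, 224 and 263 CPM in SHAM libraries, and rose with a log2 fold change of 1.08 ± 0.27 (adjusted p = 0.0404, edgeR). All 9 MM libraries were above the SHAM median and 7 were above the highest SHAM library. Rpl18, a structural protein of the 60S subunit, measured 95.7, 121 and 347 CPM in MM and 78.2, 88.0 and 107 CPM in SHAM libraries, and rose by 0.94 ± 0.23 (adjusted p = 0.0393, edgeR). Without MM5, MM8 and MM9 its log2 fold change was 0.33 (adjusted p = 0.0549, edgeR).

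Rpl9, Rpl13a and Rpl8 also rose. Rpl9, which lies near the binding site of translation factors, and Rpl13a, which in human monocytes can leave the ribosome to silence inflammatory mRNAs, had log2 fold changes of 0.73 and 0.76. Rpl8, which lies near the peptidyl transferase centre and was named after its value was seen, had 0.73. Their adjusted p lay between 0.0466 and 0.04996 (edgeR) and all 9 MM libraries were above the SHAM median for each. Rpl38, which in mice is required for normal skeletal patterning, was among the 6 highest in TPM and did not pass, at 0.56 on the log2 scale (adjusted p = 0.111, edgeR).

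The stalk proteins Rplp0, Rplp1 and Rplp2 form the flexible arm of the 60S subunit that recruits translation factors. Rplp2 measured 54.7, 71.7 and 216 CPM in MM and 49.6, 55.3 and 63.3 CPM in SHAM libraries, and rose with a log2 fold change of 0.93 ± 0.23 (adjusted p = 0.0378, edgeR), the lowest adjusted p of the family. In 8 of 9 MM libraries it exceeded every SHAM library, and MM2 was just below the SHAM median. Rplp0 measured 267, 316 and 795 CPM in MM and 229, 248 and 309 CPM in SHAM libraries, with a log2 fold change of 0.73 ± 0.20 (adjusted p = 0.0565, edgeR). Rplp1 measured 176, 221 and 434 CPM in MM and 158, 171 and 233 CPM in SHAM libraries, with 0.56 ± 0.17 (adjusted p = 0.0819, edgeR). So 1 of the 3 stalk genes passed, and all 3 were above the SHAM median in at least 8 MM libraries.

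Rpl5 and Rpl11 enter the subunit together with 5S ribosomal RNA, and unassembled they inhibit Mdm2. Rpl11 measured 138, 166 and 358 CPM in MM and 123, 131 and 158 CPM in SHAM libraries, with a log2 fold change of 0.60 ± 0.17 (adjusted p = 0.0568, edgeR). Rpl5 measured 14.97, 17.98 and 25.7 CPM in MM and 13.3, 15.4 and 18.5 CPM in SHAM libraries, with 0.22 ± 0.10 (adjusted p = 0.216, edgeR). Rpl5 was also far less abundant than its partner, at 20.98 ± 4.95 TPM in MM and 18.1 ± 2.5 TPM in SHAM, against 890 ± 267 TPM in MM and 624 ± 49.4 TPM in SHAM for Rpl11.

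Low values such as that of Rpl5 went with reads assigned to near-identical copies. Ribosomal protein genes have many retrotransposed copies in the mouse genome, and a read that matches several copies has to be divided between them. Transcripts of other genes that match a family transcript at 99% identity or more, over 200 bases or more and 50% of the copy, were found for 54 of the 78 genes, 131 copies in all. Copies held over 5% of the joint reads for 15 genes and over 50% for 5 genes. For Rps27 the copies held 97.7% of the joint reads over all 18 libraries, 36002 in copies and 865 in the gene itself. Rps27 alone measured 1.48, 2.08 and 3.805 CPM in MM and 1.40, 2.26 and 3.45 CPM in SHAM libraries, with a log2 fold change of 0.08 ± 0.21 (adjusted p = 0.837, edgeR), and 3 of 9 MM libraries were above the SHAM median. The shares were 95.3% for Rpl12, 91.9% for Rpl10, 91.1% for Rpl5 and 54.6% for Rpl27a, which was named after its value was seen.

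The most abundant copies of these genes, named here after their values were seen, had log2 fold changes between 0.52 and 0.78. Rps27rt, an intact retrogene of Rps27, measured 73.5, 96.5 and 195 CPM in MM and 68.1, 81.1 and 108 CPM in SHAM libraries, with a log2 fold change of 0.52 ± 0.19 (adjusted p = 0.125, edgeR). Gm15500, a copy of Rpl5, measured 131, 163 and 437 CPM in MM and 118, 132 and 158 CPM in SHAM libraries, with 0.72 ± 0.20 (adjusted p = 0.0571, edgeR). Gm10275, a copy of Rpl12, had 0.78 ± 0.21 (adjusted p = 0.0535, edgeR) and Rpl10-ps3 had 0.58 ± 0.17 (adjusted p = 0.0697, edgeR). Gm7536, a copy of Rpl27a, rose with 0.78 ± 0.19 (adjusted p = 0.0366, edgeR). Outside these, Rps12-ps3, a copy of Rps12, had 2.69 ± 1.18 (adjusted p = 0.193, edgeR). It was at 0 to 50.9 CPM in MM libraries (median 5.17, highest in MM9) and at 0 to 5.28 CPM in SHAM libraries (median 0). Its fold change is therefore uncertain. Among all 288 genes named as ribosomal protein pseudogenes, 11 passed the filter on low counts, 4 of these rose and 0 fell, with a median of 0.58. Of all genes tested, 2.75% rose. The 4 were Rps16-ps2 (1.04), Rpl28-ps1 (0.95), Rps23-ps1 (0.87) and Rpl15-ps3 (0.49), with adjusted p between 0.0272 and 0.0348 (edgeR). Each matched its parent gene at 100% identity over 414 to 615 aligned bases, so its count rests on how shared reads were divided.

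Adding the copies' reads to their parent genes, a step chosen after seeing the data, moved the lowest fold changes of the family upward. The log2 fold change became 0.51 for Rps27 instead of 0.08, 0.68 for Rpl5 instead of 0.22, 0.56 for Rpl10 instead of 0.29, and stayed near 0.79 for Rpl12. Over the 15 genes with over 5% of reads in copies, the SD of the fold changes was 0.18 with the copies and 0.25 without. With copies added, 11 genes of the family rose (edgeR), against 2.41% of all genes, the median was 0.66 and the range 0.20 to 1.15. Rpl13a, Rps7 and Rpl8 then no longer passed (adjusted p = 0.0524 to 0.0529, edgeR). Rps12, named after its value was seen, passed only with copies added (adjusted p = 0.0443, edgeR). The values of genes with over 5% of reads in copies are therefore uncertain alone, most of all those of Rps27, Rpl5, Rpl10 and Rpl12.

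**Figure D4:**
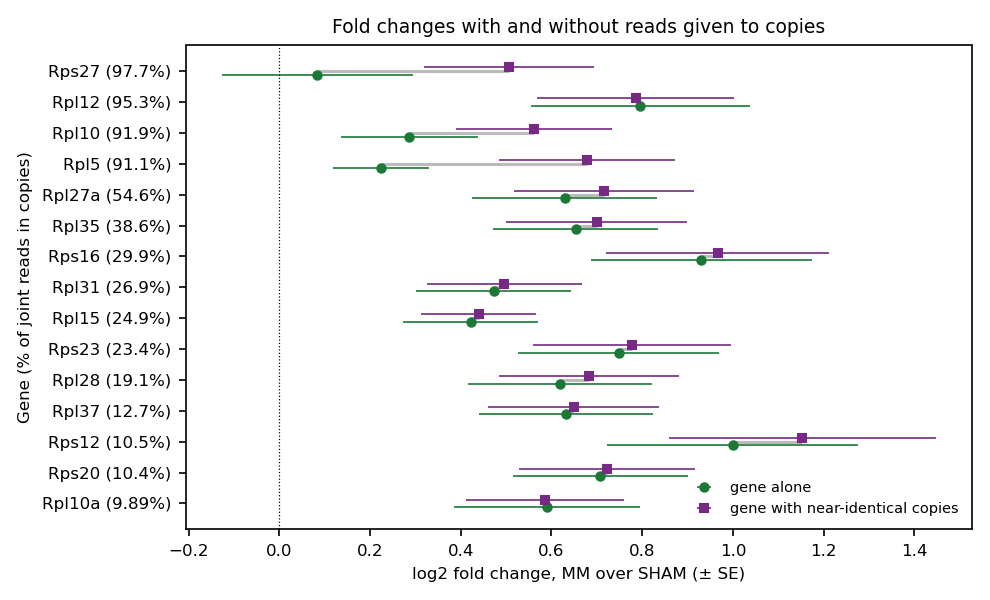
Log2 fold change of MM over SHAM with its standard error for the 15 genes with over 5% of joint reads in near-identical copies, for the gene alone (circles) and with the copies' reads added (squares); the percentage beside each name is the copies' share. The largest shifts are those of Rps27, Rpl5 and Rpl10, and the other 12 genes move less.

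The smallest fold changes among genes with few copy reads belonged to Rpl21 and Rpl3. Rpl21 measured 186, 217 and 334 CPM in MM and 189, 207 and 242 CPM in SHAM libraries, with a log2 fold change of 0.20 ± 0.11 (adjusted p = 0.301, edgeR), and 5 of 9 MM libraries were above the SHAM median. Rpl3, a large protein close to the peptidyl transferase centre, measured 267, 302 and 485 CPM in MM and 241, 262 and 304 CPM in SHAM libraries, with 0.31 ± 0.10 (adjusted p = 0.0995, edgeR). All 9 MM libraries were above the SHAM median for Rpl3.

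The variant paralogs differed in where their reads lay. Rpl3l, which replaces Rpl3 in skeletal and heart muscle, was the gene of the family that did not pass the filter on low counts. It was at 0.10 to 4.73 CPM in MM libraries, highest in MM6, and at 0.10 to 39.5 CPM in SHAM libraries, highest in SHAM8 and next in SHAM7 at 9.45 CPM. Summed skeletal muscle markers (8 genes, among them Acta1 and Ckm) were at 88.3 to 2135 CPM in MM libraries, highest in MM6, and at 62.1 to 19697 CPM in SHAM libraries, highest in SHAM8. Rps27l, a p53-responsive paralog of Rps27, measured 8.43, 9.58 and 22.3 CPM in MM and 5.33, 7.61 and 10.1 CPM in SHAM libraries, with a log2 fold change of 0.62 ± 0.19 (adjusted p = 0.0731, edgeR). Rps4x, carried on the X chromosome, had 0.69 ± 0.19 (adjusted p = 0.0543, edgeR), and Rpl39, a protein of the exit tunnel, had 0.71 ± 0.21 (adjusted p = 0.0687, edgeR).

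Fold changes within the family had little relation to transcript length, level or the pyrimidine pattern within 5 bases of the annotated start. Across the 77 genes, which share the same libraries, Pearson's r between log2 fold change and log2 effective length was -0.23 (Spearman's rho -0.16), and r with the log2 mean TPM in SHAM was 0.17 (rho -0.06). The 26 shortest genes (effective length 113 to 308 bases) had a median log2 fold change of 0.64, the 25 in the middle 0.69 and the 26 longest (525 to 1440 bases) 0.63. The 28 genes with the pyrimidine pattern within 5 bases of the start had a median of 0.65, with 4 past the threshold. The 29 tested genes with a window but without the pattern had a median of 0.63, with 5 past the threshold. By the same measure 2.75% of all genes tested rose. Within 20 bases of the start 82.8% of the 58 genes had the pattern, against 53.3% of all genes. This split therefore depends on the annotated start and the window chosen. The printed windows show the same spread, since Rpl41 and Rps28 without a run and Rps18 with one had log2 fold changes of 1.08, 1.01 and 1.02, while Rps6 with a run was at 0.38.

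Transcript use within genes was a further readout that gene totals do not hold. For genes with at least 2 protein-coding transcripts each above 10% of the gene's reads, the share of the leading transcript was compared by a 2-sided exact permutation test over 48620 assignments of the libraries, where the smallest possible p is 4.11e-05. Of 24 family genes among 4934 genes tested, 0 passed an adjusted p under 0.05, as did 0.0% of all genes. At an unadjusted p under 0.05 there were 11 of the 24 (45.8%), against 10.9% of all genes. Without MM5, MM8 and MM9 there were 8 of the 24 (33.3%), against 7.42% of all genes.

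The following transcripts were named after their values were seen, and their shares rest on Salmon's split of reads between overlapping transcripts. Rps15a, of the 40S body, had 56.3 ± 5.1% of its reads in the long transcript Rps15a-204 (5179 bases) in MM and 66.5 ± 3.4% in SHAM libraries (SD over 9 libraries each). The exact permutation p was 0.000247 and the adjusted p 0.111. The short transcript Rps15a-201 (640 bases) held 43.5 ± 5.2% in MM and 33.2 ± 3.4% in SHAM libraries. Rps24, whose last small exons are spliced differently between tissues, had 34.4 ± 10.1% of reads in Rps24-205 in MM and 46.5 ± 5.0% in SHAM libraries (exact permutation p = 0.00169, adjusted p = 0.181). Rpl22 had 49.3 ± 15.2% of reads in Rpl22-201 in MM, with 76.1% in MM9, and 34.9 ± 3.7% in SHAM libraries (exact permutation p = 0.00424, adjusted p = 0.235). In all 3 genes the MM and SHAM ranges overlapped. Without MM5, MM8 and MM9 the MM minus SHAM difference was 5.09 points for Rpl22, against 14.4 points with all libraries, and -5.60 points for Rps24, against -12.1 points. With shares of TPM the difference for Rpl22 was 6.94 points, and Rps15a did not have 2 transcripts above the minimum share and was not tested.

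The rest of the translation machinery was compared by lists. Of all genes tested, 2.75% rose, 0.241% fell and 13.9% were higher at an unadjusted p under 0.05 (edgeR). Ribosome components outside the symbol rule had a median log2 fold change of 0.54, and 2 of 8 rose and 0 fell (6 higher at an unadjusted p under 0.05, edgeR). These were Rack1, a scaffold on the 40S head, at 0.96 ± 0.25 (adjusted p = 0.0439, edgeR), and Rpl36al at 0.57 ± 0.14 (adjusted p = 0.0397, edgeR). Rack1 measured 108, 134 and 434 CPM in MM and 92.7, 104 and 127 CPM in SHAM libraries, and 8 MM libraries exceeded every SHAM library. Rps3a1, a 40S protein whose symbol falls outside the rule, had 0.70 ± 0.20 (adjusted p = 0.0617, edgeR).

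Genes that act on the ribosome had smaller median fold changes. Over all genes tested, 2.75% rose and 13.9% were higher at an unadjusted p under 0.05 (edgeR). Of 8 other mRNAs known to carry a TOP stretch, 0 passed (5 higher at an unadjusted p under 0.05, edgeR) and the median was 0.33, with Npm1, a nucleolar chaperone, at 0.75 ± 0.21 (adjusted p = 0.0617, edgeR). Of 8 elongation factors 0 passed (7 higher unadjusted) with a median of 0.25, and Eef1b2 was at 0.62 ± 0.17 (adjusted p = 0.0516, edgeR). Of 40 nucleolar assembly factors 0 passed (23 higher unadjusted) with a median of 0.26. A positive fold change was seen for 39 of them, against 48.9% of all genes tested. Of 27 initiation factors 1 rose (15 higher unadjusted), with a median of 0.13. The 1 that rose was the 60S-binding factor Eif6, at 0.23 ± 0.06 (adjusted p = 0.0474, edgeR). Of 16 RNA polymerase I genes 0 passed (8 higher unadjusted) with a median of 0.15.

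Growth regulators and the mitochondrial ribosome had medians near 0. Of 18 nutrient and growth regulators 0 rose and 1 fell, with a median of -0.03. At an unadjusted p under 0.05, 3 were higher and 4 lower (edgeR). Of the 15774 genes tested, 2199 were higher and 1357 lower by the same measure. The gene that fell was Tsc2, an inhibitor of mTOR signalling, at 91.0 CPM (median) in MM and 101 CPM in SHAM libraries, a log2 fold change of -0.14 ± 0.03 (adjusted p = 0.0366, edgeR). Myc, a transcription factor that promotes ribosome production, measured 14.3, 19.3 and 96.9 CPM in MM and 12.2, 13.8 and 16.1 CPM in SHAM libraries, with 1.23 ± 0.33 (adjusted p = 0.0523, edgeR). Of 78 mitochondrial ribosomal protein genes 0 passed and the median was 0.04. A positive fold change was seen for 62 of the 78, against 48.9% of all genes tested. At an unadjusted p under 0.05, 10 of the 78 were higher (edgeR), against 13.9% of all genes tested. The difference between the lists was not tested.

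**Figure D5:**
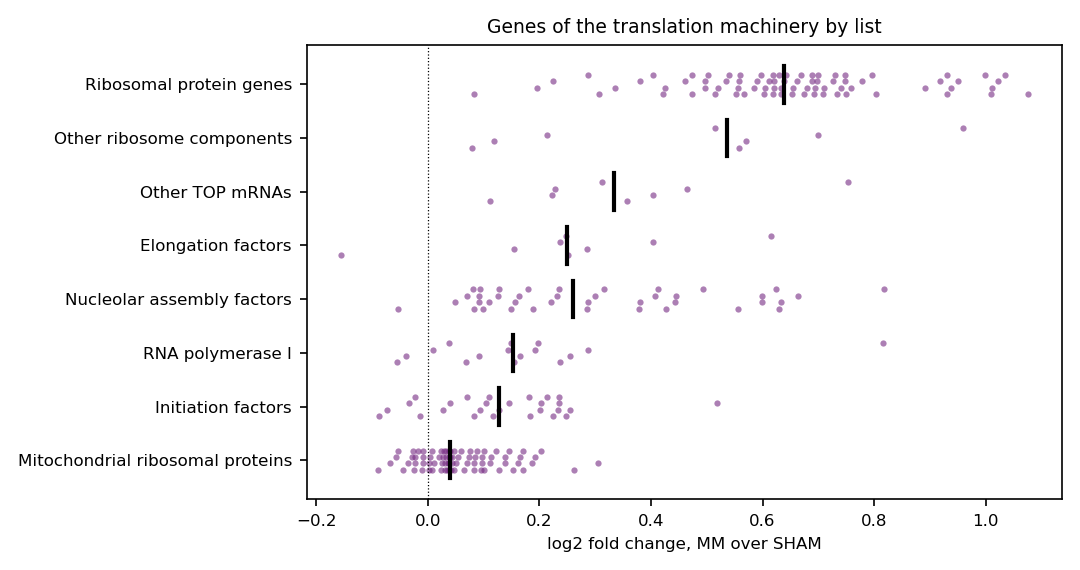
Fitted log2 fold change of MM over SHAM for each tested gene of the ribosomal protein family and of 7 other lists of the translation machinery, with 1 point for each gene, spread over 4 rows for legibility, and bars at the list medians. The medians run from 0.64 for ribosomal protein genes and 0.54 for other ribosome components to 0.04 for mitochondrial ribosomal proteins.

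Markers of some other cell types also differed between the groups, in a setting where 2.75% of all genes tested rose and 0.241% fell. Of 14 tested B cell, plasma cell and myeloma markers 8 rose and 2 fell, and their summed level was 139 to 8486 CPM in MM libraries, highest in MM9, and 94.3 to 158 CPM in SHAM libraries. Of 16 cell cycle genes 13 rose and 0 fell, with 62.2 to 651 CPM in MM libraries, highest in MM9, and 55.4 to 88.6 CPM in SHAM libraries, highest in SHAM6. Of 12 macrophage markers 7 rose and 0 fell, with 137 to 761 CPM in MM libraries, highest in MM5, and 81.9 to 254 CPM in SHAM libraries, highest in SHAM6. SHAM6, the SHAM library with the highest summed ribosomal protein level, had 0.14 CPM of Ighg2b. Of 7 erythroid genes 0 rose and 6 fell, and of 18 sensory neuron markers 0 rose and 1 fell, with 10656 to 22726 CPM in MM libraries, lowest in MM5, and 16825 to 22355 CPM in SHAM libraries, lowest in SHAM6. Among 7 neutrophil, 2 T and NK cell, 6 satellite glia and 8 Schwann cell markers tested, 0 rose and 0 fell. The same held for 8 skeletal muscle, 3 fat and 8 vascular markers. No listed marker of these types was at 0 in all libraries. Their part in the ribosomal protein difference was not tested.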

How the data were processed

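RNA from 9 MM and 9 SHAM libraries was sequenced on DNBSEQ instruments. The authors quantified it with Salmon 1.5.2 and used DESeq2 and the GRCm39 build, per the submitters' processing notes; the index and options are not given in the sources used here. Per the file headers, the deposited quantification files hold an estimated count of reads for each transcript, not scaled, with TPM scaled by Salmon and an effective length. The deposited table of all libraries holds the authors' normalized signal per gene.

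Estimated counts were summed per gene with GENCODE M21 (GRCm38) by transcript number and rounded. Transcripts without a gene held 0.85 to 1.339% of reads. edgeR 4.0.16 (R 4.3.3) tested 15774 genes kept by filterByExpr with TMM and a robust quasi-likelihood fit, group being the only term. Benjamini-Hochberg adjusted p under 0.05 over all genes counted as passing, and the procedure was tested on simulated counts. Log2 CPM used a prior count of 2, and limma 3.58.1 took log2(deposited value + 1), so low genes' folds are understated there. Alternatives also used DESeq2 1.42.0. Copies were matched with BLAST 2.17.0 on GENCODE M21 transcripts. Because the files' build differs, printed positions are those of the RefSeq promoter table (GRCm38.p6) and describe that table only. Leading transcripts were compared by exact permutation, with adjustment over all genes tested; 95% binomial intervals are exact (Clopper-Pearson).

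The genes and lists were chosen with earlier results of these data known. Genes named in the text were up to 12 past the threshold by lowest p, the 6 highest and 6 lowest in TPM, the 5 largest and 5 smallest fold changes, fixed paralogs, stalk and 5S genes, and up to 3 of each translation list by lowest p; some of these are not reported here. The labels give no pairing, so the fit carries no block.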

Additional observations from a re-analysis of the deposited data

Results flagged for a closer look

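A library was flagged where, within its group of 9, the gap to the nearest library as a share of the group's range exceeded Dixon's 95% critical value. This happened in 23 of 102 groups examined. The nominal rate of about 1 in 20 holds for independent, normally distributed values. These groups share the same 18 libraries and can be skewed, so 23 of 102 cannot be set against that rate. The causes were not tested.

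Among the ribosomal protein genes, SHAM6 stood above the other SHAM libraries for Rps18 (66.4 CPM, next 55.8), Rps27a (70.7, next 59.0), Rps28 (33.3, next 25.1) and Rps6 (228, next 208). The same library stood apart in summed erythroid (3020 CPM), neutrophil (270 CPM) and cell cycle (88.6 CPM) markers. Rpl3l stood apart in MM6 (4.73 CPM) and in SHAM8 (39.5 CPM), the libraries that also stood apart in summed skeletal muscle markers (2140 CPM in MM6 and 19700 CPM in SHAM8). SHAM8 further stood apart in fat markers (51.3 CPM), initiation factors (5380 CPM) and mitochondrial ribosomal proteins (2130 CPM).

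MM9, the library highest for 70 ribosomal protein genes, stood apart in the sums of initiation factors (6200 CPM), nucleolar assembly factors (2050 CPM), RNA polymerase I genes (545 CPM) and cell cycle genes (651 CPM), and was lowest in satellite glia markers (2120 CPM). MM5 stood apart in neutrophil (112 CPM), fat (30.6 CPM) and vascular (502 CPM) markers, and was lowest in nutrient and growth regulators (1320 CPM).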

How the results depend on the processing

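The count of 13 ribosomal protein genes called higher became 0 with no filter on low counts, where 1.02% of all genes were called higher. It was also 0 with the replicate number as a block (0.0444% of all genes) and in limma on the deposited table (1.09%). Without MM5, MM8 and MM9 it was 0 (0.331%), and without SHAM7 and SHAM8 it was 0 (0.182%). At an unadjusted p under 0.05, 74, 73, 73, 52 and 74 ribosomal protein genes were higher, in the order given. The share of all genes at that threshold was not counted in these settings. The count of 13 became 64 with DESeq2 and stayed within 1.5 times of 13 in the remaining settings on all 18 libraries. Leaving out each library in turn gave 0 to 62. The median log2 fold change was 0.19 without MM5, MM8 and MM9, 0.54 with the replicate block, 0.48 to 0.70 leaving out each library, and at least 0.55 elsewhere. The ratio of summed levels was 1.40 to 1.625 leaving out each library. The replicate numbers did not pair the libraries: deviations of same-numbered MM and SHAM libraries correlated between -0.32 and 0.263, and 2 of 9 MM libraries correlated best with their own number. No gene of the family was called lower in any setting. Over all genes, 433 higher and 38 lower became 7 and 1 with the replicate block, 1136 and 252 with DESeq2, 53 and 7 without MM5, MM8 and MM9, and 29 and 6 without SHAM7 and SHAM8. The deposited table with limma gave 193 higher, no filter gave 20 lower, and the effective length offset gave 66 lower. Leaving out each library gave 75 to 891 higher and 9 to 139 lower. The causes were not tested.

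Of 783 values of 27 named genes under the alternatives, 564 kept direction and side of the threshold, 164 lost it, 51 gained it and 4 reversed. The reversed ones were Rpl10 (-0.009) and Rpl21 (-0.025) without MM5, MM8 and MM9, and Rps27, which ran from -0.021 without MM4 (and -0.013 without MM7) to 0.176 without SHAM6. The share of genes with the pyrimidine pattern was 82.8% within 20 bases of the start, against 53.3% of all genes. With TPM shares, 5 of 5889 genes and 0 of 24 ribosomal protein genes passed for transcript use. Genes were identified through GRCm38 annotation. Reads shared with copies limit the 15 genes with over 5% of joint reads in copies, most of all Rps27, Rpl5, Rpl10 and Rpl12. Depth does not limit the other genes tested.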
